A study of Mus musculus with 12 samples.

Results

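Kruppel-like factors (KLFs) are transcription factors that bind CACCC and GC-rich DNA through zinc fingers at the C-terminus. Of the 43629 genes in a count table from RNA-seq of sorted mouse thymic pre-T cells, 10 are described here: Klf2, Klf3, Klf4, Klf6, Klf7, Klf9, Klf10, Klf11, Klf12 and Klf13. They were taken by name as a gene family and selected on levels already seen in these libraries, since Klf6 lay above both control groups in the mutant cells. The levels of all 10 in the mutant cells against either control are therefore given as descriptions, with no test. The pattern named in the choice does not state a difference between the control stages, and that difference was tested. The control levels were known as well when the family was chosen.

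The mutant cells, called DCKO, were DN3-like pre-T cells of C57BL/6 mice with the genotype Zfp36l1fl/fl, Zfp36l2fl/fl, CD2cre, in which a Cre recombinase under a CD2 transgene acts on the floxed alleles in lymphocytes. The control groups, DN3b and DN3a, came from C57BL/6 mice with the same floxed alleles (Zfp36l1fl/fl, Zfp36l2fl/fl) and no Cre. All 3 groups had 4 libraries, described by the submitters as biological replicates, and all were sorted from the thymus by flow cytometry. The sources used here give neither age nor the number of mice behind a library. Thymocytes at the DN3 stage carry neither CD4 nor CD8. DN3a cells have not yet passed beta selection, which tests a newly rearranged beta chain as part of the pre-T cell receptor, and DN3b cells have. The proteins ZFP36L1 and ZFP36L2 recognise AU-rich elements in 3′ untranslated regions (UTRs) and speed the decay of those messengers.

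KLF proteins fall into groups by the partners of their N-terminal region. KLF2, KLF4, KLF6 and KLF7 are mostly activators that work with acetyltransferases, KLF3 and KLF12 repress through the corepressor CtBP, and KLF9, KLF10, KLF11 and KLF13 bind the corepressor Sin3A. In T cells the family is best known for KLF2, which keeps mature naive T cells quiescent and switches on the receptors with which they leave the thymus, and whose gene is a target of the transcription factor FOXO1. KLF10 is induced by TGF-beta in T cells.

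Because the deleted genes encode AU-rich element binding proteins, the 3′ UTRs of the family were searched on the sense strand for TATTTAT, the DNA form of the heptamer that these proteins prefer. The longest annotated 3′ UTR of each gene was used (GENCODE M21, GRCm38). Of the 10 members, 5 held at least 1 match, and all 5 were among the 8 members abundant enough to be tested. Klf6 held 2 matches and Klf2, Klf7, Klf10 and Klf11 held 1 each. Each match is shown in capitals within 30 bases of the sense strand.
Klf6, chr13:5868490-5868519, plus strand: gctacgtctctTATTTATgccttgaggact
Klf6, chr13:5868943-5868972, plus strand: cacaccggctgTATTTATtatgtaacattg
Klf2, chr8:72320988-72321017, plus strand: aaacagactgcTATTTATtggaccttagga
Klf7, chr1:64029783-64029812, minus strand: gccttctctggTATTTATaatatatcacag
Klf10, chr15:38294919-38294948, minus strand: cagtgtcttttTATTTATaggagtttttca
Klf11, chr12:24660911-24660940, plus strand: ttttataaaaaTATTTATattgtgctcaaa
The Klf2 match begins at base 80 of the 3′ UTR and the Klf6 matches at bases 1218 and 1671, counted from 1 at the first base after the stop codon. Among 11677 tested genes with an annotated 3′ UTR, 29.8% held at least 1 match and 10.6% held 2 or more. Among the 3475 of these with a 3′ UTR of at least 2000 bases the shares were 53.9% and 23.9%. A match describes the sequence and is not a measured binding site.

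The 250 bases before the RefSeq start site (GRCm38.p6) were available for 9 of the 10 members. They were searched on both strands for CTANNNNTAG (MEF2 proteins), TGTTTAC (FOXO proteins), the CCAAT box, the E box CACGTG, the GC box GGGCGG and the KLF motif CACCC. The windows of Klf6, of Klf2 and of Klf9 are printed, Klf6 as the member that stood out in DCKO and the others because their windows held a match for factors whose genes are followed below. The Klf6 window held 4 matches to CCAAT and 1 to CACGTG, shown in capitals on the strand of the gene. The Klf2 window held the only match to CTANNNNTAG among these 9 and the Klf9 window the only match to TGTTTAC, as its reverse complement.
Klf6, chr13:5861239-5861488, plus strand: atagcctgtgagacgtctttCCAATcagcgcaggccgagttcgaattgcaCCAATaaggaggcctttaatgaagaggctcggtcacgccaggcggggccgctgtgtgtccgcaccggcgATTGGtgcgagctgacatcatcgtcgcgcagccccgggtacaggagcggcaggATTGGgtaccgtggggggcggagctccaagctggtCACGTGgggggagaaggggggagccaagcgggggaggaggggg
Klf2, chr8:72318812-72319061, plus strand: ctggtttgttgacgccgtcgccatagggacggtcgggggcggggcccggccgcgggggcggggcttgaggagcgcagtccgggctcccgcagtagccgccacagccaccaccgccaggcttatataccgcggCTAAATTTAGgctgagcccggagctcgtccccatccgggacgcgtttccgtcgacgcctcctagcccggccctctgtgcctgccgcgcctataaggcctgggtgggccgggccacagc
Klf9, chr19:23140976-23141225, plus strand: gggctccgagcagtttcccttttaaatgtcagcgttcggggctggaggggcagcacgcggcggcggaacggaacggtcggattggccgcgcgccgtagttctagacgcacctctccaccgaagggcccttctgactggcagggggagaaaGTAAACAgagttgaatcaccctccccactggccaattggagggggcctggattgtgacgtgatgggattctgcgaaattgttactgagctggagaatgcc
Of 32851 windows of the same length, 3.2% held CTANNNNTAG, 3.17% held TGTTTAC, 33.8% held CCAAT, 6.02% held CACGTG, 32.7% held GGGCGG and 52.0% held CACCC. These matches describe the letters of the windows, and binding was not measured.

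Libraries held 30401159 to 41258922 counts in DCKO, 32359182 to 41664096 in DN3b and 28479157 to 45975678 in DN3a, and 13944 genes passed the filter on low counts. Zfp36l1 averaged 2.33 ± 1.01 CPM in DCKO, 14.3 ± 6.13 in DN3b and 33.9 ± 7.15 in DN3a, and Zfp36l2 63.9 ± 20.1, 364 ± 79.4 and 541 ± 145 in the same order (CPM, counts scaled to a common library size after TMM correction for composition, mean ± SD, n = 4 each). Both were lower in every DCKO library than in every control library. Zfp36, the related gene that was not targeted, stood at 1.98 ± 0.317, 2.03 ± 0.2 and 1.36 ± 0.71 CPM. A pair of DCKO libraries stood apart: in library 1 a single feature without a symbol took 9.02% of the counts, against 0.00629% to 2.61% elsewhere, and in library 2 Lars2 and Gm42418 took 1.71%, against 0.00331% to 0.0682% elsewhere. Without both libraries, calls in DCKO against DN3b numbered 950 in place of 2635, and each call that a named gene then lost is given beside that gene. The summed level of 10 DN3 markers was 5610 to 10700 CPM in DCKO, 2470 to 5110 in DN3b and 5620 to 8910 in DN3a, with none of the 10 at 0, and that of 8 markers of mature single positive thymocytes 379 to 788, 378 to 597 and 601 to 1140. In these sums and those below, the most abundant markers weigh most. Of the 10 DN3 markers, 1 rose and 3 fell in DCKO against DN3a, beside 30.7% and 29.5% of all genes. Against DN3b 3 rose and 0 fell, beside 10.3% and 8.58%. The median log2 fold change of the 10 was -0.53 against DN3a and 0.65 against DN3b. Sums of 12 myeloid markers were 14.7 to 30.5, 7.45 to 16.8 and 25.5 to 36.1 CPM, with S100a9 at 0 in DN3b. In the DCKO libraries S100a9 had 121, 0, 2 and 92 counts and S100a8 had 86, 0, 0 and 35. No control library held more than 2 counts of either, and neither passed the filter. Of the 9 myeloid markers that did, 1 rose and 1 fell in DCKO against each control, beside the same shares of all genes. Their median log2 fold change was -0.01 against DN3a and 1.11 against DN3b, where that of all genes was -0.041 and -0.022. Sums of 7 B cell markers were 19.5 to 24.9, 10.1 to 32.6 and 43.1 to 58.5 CPM, with Pax5 at 0 in DN3b. Sums of 7 cytotoxic lymphocyte markers were 278 to 481, 404 to 576 and 152 to 271 CPM, with Ncr1 at 0 in DN3b and Eomes at 0 in both controls. Sums of 5 gamma-delta T cell markers were 57.9 to 132, 62 to 81.1 and 61.3 to 70.7 CPM. Sums of 9 erythroid and platelet markers were 4.06 to 17.3, 2.93 to 29.4 and 8.27 to 26.2 CPM. Sums of 8 thymic stroma markers were 90.4 to 154, 82.4 to 165 and 195 to 270 CPM, with Pdgfra at 0 in all groups and Krt5 and Foxn1 at 0 in DN3a. Several of these sums differ between the groups, and their part in the Klf results was not tested. In bulk RNA, fewer cells of a type and less RNA per cell cannot be told apart.

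Members of the family moved in both directions between the control stages, as did genes over the whole table. Of the 8 members tested, Klf10 rose in DN3b against DN3a and Klf9, Klf3, Klf7 and Klf6 fell, while Klf2, Klf11 and Klf13 did not pass the test. That is 1 of 8 higher and 4 of 8 lower, against 27.4% of all genes higher and 25.2% lower (edgeR quasi-likelihood test, adjusted p at most 0.05 over all genes tested). The median log2 fold change of the 8 was -0.25, against -0.022 over all 13944 genes. From so few genes nothing is read about the family as a set. Klf9, induced by glucocorticoid and thyroid hormone in several tissues, had the largest fold of the 8, 3.57-fold lower in DN3b.

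In DCKO, Klf6 and Klf7 lay above both control groups and no member lay below both. Against DN3a, 3 of 8 members were higher in every DCKO library than in every DN3a library (Klf6, Klf7 and Klf10), beside 27.8% of all genes tested, and 1 of 8 was lower (Klf9), beside 27.1%. Against DN3b, 3 of 8 were higher without overlap (Klf3, Klf6 and Klf7), beside 11% of all genes, and none was lower, beside 9.87%. Without overlap on either side, 2 of 8 lay above both controls, where 7.09% of all genes did, and 0 of 8 lay below both, where 5.52% did. Nothing is read from these shares, since the family was chosen with the DCKO levels known. With upper quartile scaling, Klf6 and Klf7 overlapped DN3a and Klf10 alone lay above it.

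**Figure D1:**
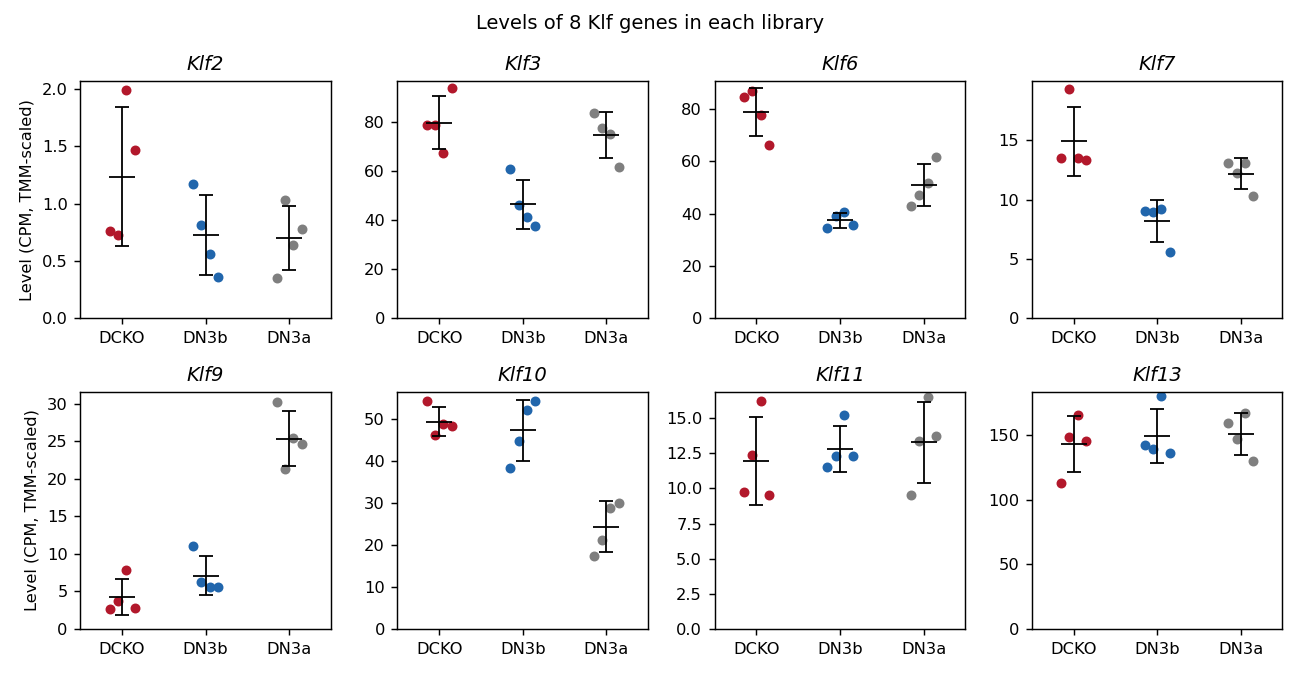
Level of 8 Klf genes in each library (points, y axis in CPM on TMM-scaled library sizes, starting at 0) in DCKO, DN3b and DN3a, with the group mean and SD (bars, n = 4). Klf6 and Klf7 in DCKO lie above both controls, Klf9 is high in DN3a alone (21.3 to 30.2 CPM), and Klf10 is low in DN3a alone (17.4 to 29.9 CPM).

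Klf6 (ENSMUSG00000000078, GRCm38 chromosome 13, 5861482 to 5870394, plus strand), the only member with 2 TATTTAT matches, encodes an activator that has been described to switch on the cell cycle inhibitor gene CDKN1A in human cells. It had 84.5, 86.8, 77.8 and 66.4 CPM in DCKO, 34.5, 39.1, 40.5 and 35.7 CPM in DN3b, and 42.8, 47.3, 51.7 and 61.8 CPM in DN3a. The lowest DCKO library was above the highest control library, and every DN3b library was below every DN3a library. The fitted log2 fold change was 1.07 ± 0.13 (SE) for DCKO against DN3b, which is 2.11-fold, and 0.63 ± 0.12 for DCKO against DN3a. Between the control stages Klf6 fell by 0.44 ± 0.12 on the log2 scale in DN3b (edgeR adjusted p = 0.0095). With upper quartile scaling the difference between DCKO and DN3a was 0.41, in a setting that put the median of all genes at -0.26 in place of -0.041.

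Klf7 (ENSMUSG00000025959, chromosome 1, 64029447 to 64122282, minus strand) is closest to Klf6 in sequence and is known in mice for its role in the growth of neurons. It had 13.5, 19.3, 13.5 and 13.3 CPM in DCKO, 9.02, 8.96, 9.18 and 5.56 CPM in DN3b, and 13.1, 12.2, 13.1 and 10.3 CPM in DN3a. The lowest DCKO library, at 13.3 CPM, stood just above the highest DN3a library, at 13.1 CPM, and DCKO library 2 was the highest of all. The log2 fold change was 0.86 ± 0.19 for DCKO against DN3b and 0.29 ± 0.18 for DCKO against DN3a (0.11 without DCKO library 2). With RLE scaling, and without any one of DCKO libraries 1, 2 and 3 or DN3b libraries 2, 3 and 4, Klf7 overlapped DN3a, and it did so without DCKO libraries 1 and 2 together. In DN3b against DN3a it fell by 0.57 ± 0.19 (edgeR adjusted p = 0.02), and the call was lost without DN3a library 3 (adjusted p = 0.0529).

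Klf2 (ENSMUSG00000055148, chromosome 8, 72319033 to 72321656, plus strand), the quiescence and egress factor of mature T cells, passed the filter at a low level. It had 0.766, 0.724, 1.99 and 1.47 CPM in DCKO, 1.17, 0.81, 0.557 and 0.358 CPM in DN3b, and 0.354, 1.03, 0.64 and 0.78 CPM in DN3a. DCKO libraries 3 and 4 were higher than every control library, and libraries 1 and 2 lay within the range of the controls. These levels stand on 19 to 76 counts in a DCKO library, 11 to 49 in a DN3b library and 12 to 55 in a DN3a library. The log2 fold change was 0.77 ± 0.44 for DCKO against DN3b and 0.81 ± 0.44 for DCKO against DN3a. These were 1.24 and 1.27 without DCKO libraries 1 and 2, and 0.422 and 0.457 without DCKO library 3, the highest. For DN3b against DN3a the log2 fold change was 0.05 ± 0.45 (edgeR adjusted p = 0.94).

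Klf4 (ENSMUSG00000003032, chromosome 4, 55527143 to 55532466, minus strand), a reprogramming factor of pluripotent cells, did not pass the filter. Its counts, summed over 4 libraries, were 25 in DCKO, 18 in DN3b and 16 in DN3a. The levels were 0.128 to 0.278 CPM in DCKO, 0.0531 to 0.172 in DN3b and 0.0295 to 0.131 in DN3a, and the groups overlapped.

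Among the members that recruit CtBP, Klf3 (ENSMUSG00000029178, chromosome 5, 64803388 to 64832901, plus strand) was the abundant one. It encodes a repressor known in mice for its role in B cell and red cell maturation. It had 79, 78.8, 67.6 and 93.9 CPM in DCKO, 60.7, 46, 41.5 and 37.7 CPM in DN3b, and 83.8, 77.8, 75.2 and 61.7 CPM in DN3a. DN3b lay below the other groups without overlap, though its highest library, at 60.7 CPM, was close to the lowest DN3a library, at 61.7 CPM. DCKO and DN3a overlapped. Klf3 fell by 0.68 ± 0.15 in DN3b against DN3a (edgeR adjusted p = 0.0025). The log2 fold change was 0.78 ± 0.15 for DCKO against DN3b and 0.10 ± 0.15 for DCKO against DN3a, where upper quartile scaling gave -0.13. An opposite-strand transcript, Gm20033, overlaps Klf3 and had 384 counts over all 12 libraries, and no source used here gives the strand setting of the counting.

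Klf12 (ENSMUSG00000072294, chromosome 14, 99870632 to 100284679, minus strand) encodes another CtBP-binding repressor. It had 0 counts in every DCKO library, 2, 0, 0 and 7 in the DN3b libraries, and 2, 4, 2 and 1 in the DN3a libraries. In CPM the DN3a libraries held 0.0325 to 0.0746, each above every DCKO library, while DN3b libraries 2 and 3 were at 0 as well. A count of 0 allows up to 3 counts of a TMM-scaled total of 130374970 over the DCKO libraries, which is 0.023 CPM. Klf12 did not pass the filter, so no test was run.

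Among the members that bind Sin3A, Klf9 (ENSMUSG00000033863, chromosome 19, 23141226 to 23168134, plus strand) differed most between groups. It had 2.7, 3.7, 7.82 and 2.77 CPM in DCKO, 11, 6.19, 5.63 and 5.56 CPM in DN3b, and 30.2, 21.3, 25.4 and 24.6 CPM in DN3a. Every DN3a library was above every other library, and DCKO and DN3b overlapped through DCKO library 3. Klf9 fell by 1.83 ± 0.33 on the log2 scale in DN3b against DN3a (edgeR adjusted p = 0.00059). The log2 fold change was -2.57 ± 0.34 for DCKO against DN3a, 5.92-fold lower, and -0.73 ± 0.33 for DCKO against DN3b. Without DCKO library 3 these were -3.08 and -1.23, and every remaining DCKO library was then below every DN3b library. Without DN3b library 1, the highest of its group, the value for DCKO against DN3b was -0.436.

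Klf10 (ENSMUSG00000037465, chromosome 15, 38291463 to 38300706, minus strand), the TGF-beta inducible member, ran the other way. It had 54.4, 46.2, 48.8 and 48.3 CPM in DCKO, 38.3, 44.8, 52.1 and 54.3 CPM in DN3b, and 17.4, 21.1, 28.9 and 29.9 CPM in DN3a. Both DCKO and DN3b lay above every DN3a library and overlapped each other. Klf10 rose by 0.96 ± 0.17 in DN3b against DN3a, 1.95-fold (edgeR adjusted p = 5e-04). The log2 fold change was 1.02 ± 0.17 for DCKO against DN3a and 0.06 ± 0.17 for DCKO against DN3b.

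Klf11 and Klf13 stood at similar levels in all groups. Klf11 (ENSMUSG00000020653, chromosome 12, 24651274 to 24662789, plus strand), also inducible by TGF-beta, had 9.72, 12.4, 16.2 and 9.5 CPM in DCKO, 11.5, 12.3, 15.2 and 12.3 CPM in DN3b, and 9.53, 13.4, 16.5 and 13.7 CPM in DN3a. Library 3 had the highest Klf11 level in each group, and all groups overlapped. Klf13 (ENSMUSG00000052040, chromosome 7, 63886351 to 63938915, minus strand), which binds the CCL5 promoter in human T cells, had 113, 148, 165 and 145 CPM in DCKO, 142, 139, 180 and 136 CPM in DN3b, and 159, 147, 167 and 130 CPM in DN3a. In DN3b against DN3a the log2 fold change was -0.05 ± 0.2 for Klf11 and -0.01 ± 0.13 for Klf13 (edgeR adjusted p = 0.84 and 0.94). For DCKO the values were -0.15 ± 0.2 and -0.08 ± 0.13 against DN3a and -0.10 ± 0.2 and -0.06 ± 0.13 against DN3b.

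**Figure D2:**
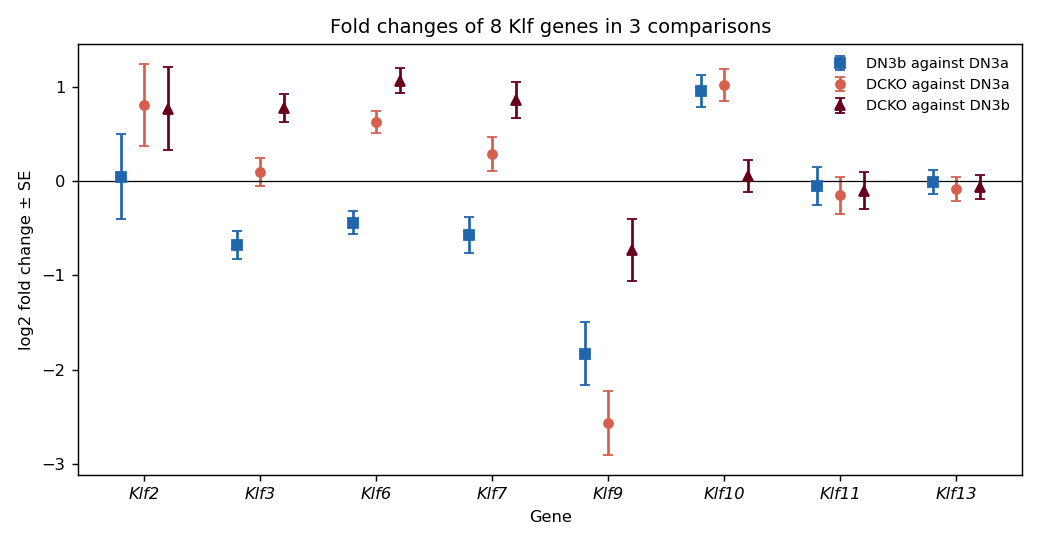
Fitted log2 fold change with SE (y axis) of 8 Klf genes (x axis) for DN3b against DN3a (squares), DCKO against DN3a (circles) and DCKO against DN3b (triangles). The comparisons share libraries. Klf9 reaches -2.57 in DCKO against DN3a, Klf6 1.07 in DCKO against DN3b, and Klf11 and Klf13 stay near 0 in all 3.

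Per kilobase of exon, the order of the family changed with the group. The length used joins the exons of all annotated transcripts of a gene, 11243 bases for Klf3. The length of the messenger present was not measured, so comparisons between genes are approximate. In DCKO the levels were 19.0 ± 2.88 CPM per kb for Klf13, 18.0 ± 2.08 for Klf6, 11.8 ± 0.838 for Klf10, 7.1 ± 0.96 for Klf3, 2.75 ± 0.719 for Klf11, 1.83 ± 0.361 for Klf7, 0.882 ± 0.504 for Klf9 and 0.67 ± 0.329 for Klf2 (SD, n = 4). The neighbours Klf13 and Klf6 overlapped, as did Klf11 and Klf7, Klf7 and Klf9 did not, and Klf9 and Klf2 did. In DN3b the order was Klf13 (19.8 ± 2.74), Klf10 (11.3 ± 1.74), Klf6 (8.53 ± 0.641), Klf3 (4.13 ± 0.896), Klf11 (2.96 ± 0.375), Klf9 (1.47 ± 0.544), Klf7 (1.01 ± 0.215) and Klf2 (0.392 ± 0.19). Of these neighbours Klf10 and Klf6 overlapped by 9.16 to 9.22 CPM per kb, Klf3 and Klf11 by 3.35 to 3.5, and Klf9 ended at 1.15, above the highest Klf7 library at 1.13. In DN3a the order was Klf13 (20.0 ± 2.14), Klf6 (11.6 ± 1.85), Klf3 (6.64 ± 0.831), Klf10 (5.82 ± 1.45), Klf9 (5.27 ± 0.763), Klf11 (3.06 ± 0.66), Klf7 (1.5 ± 0.162) and Klf2 (0.38 ± 0.153). There Klf3, Klf10 and Klf9 overlapped, and Klf9 stayed above the highest Klf11 library (4.42 against 3.8 CPM per kb). Klf13 ranked first by mean in every group, Klf9 ranked 7 of 8 in DCKO and 5 of 8 in DN3a, and Klf4 (0.0627, 0.0396 and 0.0308 CPM per kb in DCKO, DN3b and DN3a) and Klf12 closed the list everywhere.

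**Figure D3:**
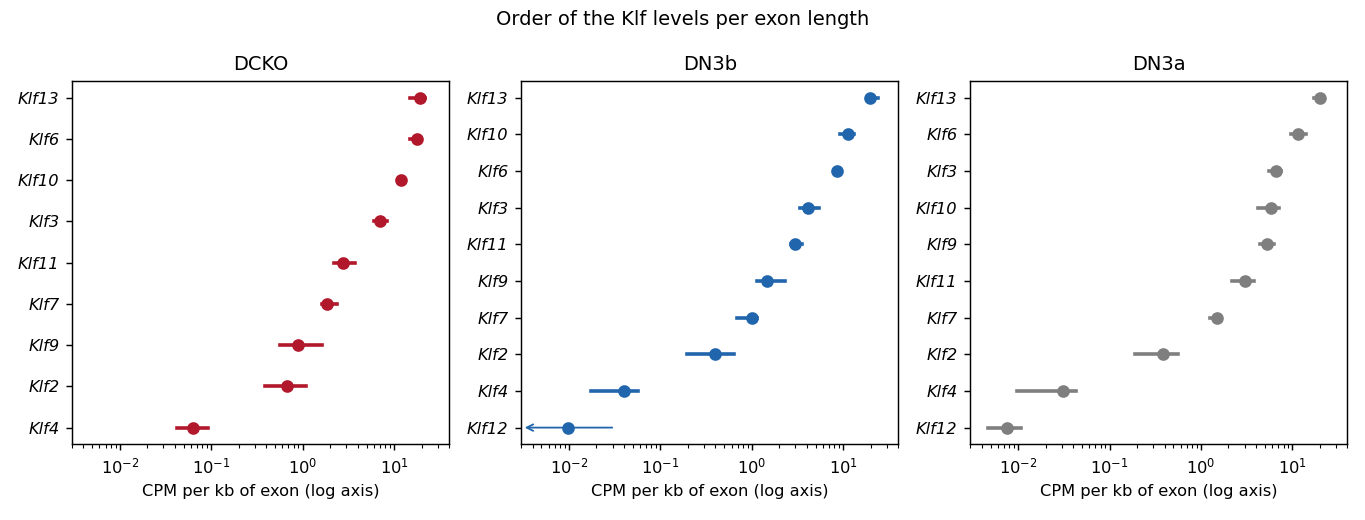
Mean level (points) and range over 4 libraries (lines) of the Klf genes in CPM per kb of exon (log x axis), ordered by mean within DCKO, DN3b and DN3a. Klf12 has 0 counts in DCKO and is not drawn there, and the arrow in DN3b marks libraries at 0. Klf6 ranks 2 in DCKO and DN3a and 3 in DN3b, and Klf9 stands at 0.882 CPM per kb in DCKO against 5.27 in DN3a.

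The genes whose log2 CPM followed Klf6 most closely over the 12 libraries, among 8331 genes compared, were Zdhhc15 (Pearson r = 0.97), Zfp91 (0.961), Uhmk1 (0.956), Ncoa7 (0.952) and Fam3c (0.949). On deviations from the group means their r with Klf6 was 0.77, 0.6, 0.73, 0.85 and 0.75. For Klf2 the closest were D16Ertd472e (0.861), Esm1 (0.781), Cpa3 (0.772), Trbj1-5 (0.765) and Trbj1-3 (0.757), with 0.91, 0.72, 0.86, 0.86 and 0.9 on the deviations. The points share libraries and depth, and the values are descriptions.

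Of 11 other Klf and Sp genes, which encode proteins with closely related zinc fingers, 6 passed the filter. In DN3b against DN3a 1 rose and 1 fell (2 and 1 with the replicate pairs as a block), beside 27.4% and 25.2% of all genes. In DCKO against DN3a 2 rose and 0 fell, beside 30.7% and 29.5% of all genes, and in DCKO against DN3b 1 rose and 0 fell, beside 10.3% and 8.58%. The median log2 fold change of the 6 was 0.1, 0.3 and 0.13 in these comparisons. Klf16, whose protein also binds Sin3A and whose longest 3′ UTR also holds 1 TATTTAT, was called in all 3 comparisons. It had 46.3, 43, 40.1 and 55.1 CPM in DCKO, 32.3, 25.7, 31.8 and 30.2 CPM in DN3b, and 16.6, 13.5, 17.4 and 17.2 CPM in DN3a. The groups did not overlap in any pair, with DN3b between the others. Its log2 fold change was 0.62 ± 0.13 for DCKO against DN3b (edgeR adjusted p = 0.0052), 1.51 ± 0.13 for DCKO against DN3a (3.8e-06) and 0.89 ± 0.13 for DN3b against DN3a (0.00015).

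The Sp factors, ubiquitous activators of GC-rich promoters, differed less. Sp3 averaged 440 ± 45.9 CPM in DCKO, 349 ± 32.5 in DN3b and 325 ± 39 in DN3a and rose by 0.44 ± 0.12 in DCKO against DN3a (edgeR adjusted p = 0.0054), a call lost with upper quartile scaling (0.13) and without DCKO libraries 1 and 2 (0.0729). Sp4 averaged 68.5 ± 3.7, 61.5 ± 4.69 and 73.4 ± 7.11 CPM and fell by 0.26 ± 0.09 in DN3b against DN3a (0.035), a call lost without any one of DN3b libraries 1, 2 and 3 or DN3a libraries 2, 3 and 4 (0.064 to 0.106). Sp2 averaged 5.34 ± 1.59, 6.01 ± 1.17 and 4.06 ± 0.856 CPM, with a log2 fold change of 0.57 in DN3b against DN3a (0.071, and 0.029 with the replicate pairs as a block). Opposite-strand transcripts overlap Sp2 (D030028A08Rik, 16080 counts over 12 libraries) and Sp3 (Sp3os, 1655 counts), and their reads may not be separated. Sp1 stood at 277 ± 27.5, 258 ± 33.2 and 240 ± 19.3 CPM and Klf8, a CtBP-binding repressor, at 0.478 ± 0.25, 0.83 ± 0.323 and 0.965 ± 0.214, and neither passed the test in a comparison (lowest adjusted p 0.13 and 0.054), though Klf8 passed in DCKO against DN3a under 11 alternatives (0.0217 to 0.0495). Klf1, Klf5, Klf14, Klf15 and Klf17 did not pass the filter, and Klf17 had 0 counts in every library.

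Cofactors of KLF proteins and the ligases that degrade them were listed as 17 genes, all of them tested. In DN3b against DN3a 6 rose and 3 fell (5 fell with the replicate pairs as a block), in DCKO against DN3a 8 rose and 3 fell, and in DCKO against DN3b 4 rose and 1 fell (2 and 0 without DCKO libraries 1 and 2). Of all genes, 27.4% rose and 25.2% fell in DN3b against DN3a, 30.7% and 29.5% in DCKO against DN3a, and 10.3% and 8.58% in DCKO against DN3b. On leaving out 1 library the rises ranged from 3 to 7 (3 without DN3b library 3 or 4 or DN3a library 2 or 3), from 5 to 8 (5 without DCKO library 2) and from 2 to 5 (2 without DCKO library 2 or 3 or DN3b library 1, 2 or 3). The median log2 fold change of the 17 was 0.02, 0.38 and 0.05, against -0.022, -0.041 and -0.022 over all genes. Kat2b, an acetyltransferase that works with KLF activators, had the order of Klf6: it averaged 184 ± 15.2 CPM in DCKO, 71 ± 9.32 in DN3b and 131 ± 9.88 in DN3a, and rose by 1.37 ± 0.11 in DCKO against DN3b (edgeR adjusted p = 7.1e-06). Ctbp1, the corepressor of KLF3 and KLF12, averaged 148 ± 26.8 CPM in DCKO, 225 ± 32.8 in DN3b and 141 ± 26.2 in DN3a. It fell by 0.60 ± 0.16 in DCKO against DN3b (0.018, lost without DCKO library 1, 2 or 3 at 0.0532, 0.0591 and 0.052, and without libraries 1 and 2 together at 0.203). Hdac2, a deacetylase of the Sin3A complex, averaged 359 ± 31.1, 259 ± 42.4 and 178 ± 24.1 CPM and rose by 1.01 ± 0.13 in DCKO against DN3a (4.4e-05). Sap30, another subunit of that complex, stood at 56.8 ± 8.15, 39.7 ± 2.53 and 39.3 ± 3.75 CPM and rose by 0.52 ± 0.12 in DCKO against DN3b (0.0085). Fbxw7, the substrate receptor of a ubiquitin ligase that has been described to degrade KLF2, stood at 78.7 ± 8.36, 79 ± 4.34 and 117 ± 8.96 CPM and fell in both DCKO and DN3b against DN3a, by 0.57 ± 0.1 (0.00026) and 0.56 ± 0.1 (0.00043). Wdr5, which contributes to histone methylation and acetylation complexes, stood at 176 ± 8.83, 169 ± 16.8 and 98.7 ± 9.15 CPM and rose in both, by 0.83 ± 0.1 (1.8e-05) and 0.78 ± 0.1 (6.5e-05).

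Of 18 genes upstream of Klf genes (FOXO factors, the MEK5 and MEF2 pathway, the TGF-beta pathway and the glucocorticoid receptor), 2 rose and 8 fell in DN3b against DN3a, 6 rose and 5 fell in DCKO against DN3a, and 3 rose and 2 fell in DCKO against DN3b (0 fell without DCKO libraries 1 and 2). The shares over all genes were 27.4% higher and 25.2% lower, 30.7% and 29.5%, and 10.3% and 8.58% in these comparisons. The medians of the 18 were -0.33, -0.17 and 0.14. The TGF-beta receptor genes, whose signal induces Klf10 and Klf11, moved apart. Tgfbr1 averaged 415 ± 83.9 CPM in DCKO, 181 ± 21.5 in DN3b and 272 ± 9.2 in DN3a, and rose by 1.19 ± 0.14 in DCKO against DN3b (edgeR adjusted p = 0.00013). Tgfbr2 averaged 17 ± 1.46, 24.9 ± 5.71 and 44.2 ± 1.09 CPM, and fell by 1.38 ± 0.14 in DCKO against DN3a (9.2e-06) and by 0.83 ± 0.14 in DN3b against DN3a (0.00043). Smad2, which carries the signal to the nucleus, stood at 113 ± 9.03, 81.7 ± 7.74 and 74.8 ± 4.04 CPM and rose by 0.47 ± 0.09 in DCKO against DN3b (0.0038, and 0.0584 without DCKO libraries 1 and 2). Tgfbr1 also fell by 0.59 ± 0.14 in DN3b against DN3a (0.0033).

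Mef2a, of the MEF2 family that activates Klf2, averaged 79.4 ± 7.94 CPM in DCKO, 83.3 ± 16.9 in DN3b and 42.5 ± 5.81 in DN3a, and rose in both groups against DN3a, by 0.90 ± 0.15 (edgeR adjusted p = 0.00026) and 0.97 ± 0.15 (0.00025). Map3k3, a kinase at the head of the MEK5 pathway, stood at 86.5 ± 2.17, 65.1 ± 3.2 and 69.6 ± 5.79 CPM and rose by 0.41 ± 0.08 in DCKO against DN3b (0.0044). Foxo4 averaged 30.2 ± 1.96, 35 ± 3.36 and 21.7 ± 2.67 CPM and rose by 0.69 ± 0.11 in DN3b against DN3a (0.00037). Foxo1, the activator of Klf2 in T cells, was added after its values were seen. It had 0.766, 2.62, 3.84 and 3.73 CPM in DCKO, 4.1, 7.95, 9.39 and 7.94 CPM in DN3b, and 6.76, 10.7, 10.7 and 8.51 CPM in DN3a, with every DCKO library below every control library. It fell by 1.73 ± 0.39 in DCKO against DN3a (0.0021) and by 1.41 ± 0.39 in DCKO against DN3b (0.025), the second call lost without DCKO library 2 (0.0653), DN3b library 2 (0.0576), DN3b library 3 (0.0699) or DCKO libraries 1 and 2 (0.114). Klf2 averaged 1.24 ± 0.606 CPM (SD, n = 4) in DCKO, 0.723 ± 0.349 CPM in DN3b and 0.7 ± 0.281 CPM in DN3a.

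Of 9 genes of T cell egress and homing linked to KLF2, 6 passed the filter. In DN3b against DN3a 1 rose and 2 fell (2 rose with the replicate pairs as a block), in DCKO against DN3a 1 rose and 3 fell, and in DCKO against DN3b 0 rose and 2 fell, a count that ranged from 0 to 2 on leaving out 1 library and was 0 without DCKO libraries 1 and 2. Beside them stand 27.4% higher and 25.2% lower of all genes in DN3b against DN3a, 30.7% and 29.5% in DCKO against DN3a, and 10.3% and 8.58% in DCKO against DN3b. The median of the 6 was -0.44, -0.68 and -0.16. S1pr1, the exit receptor that KLF2 activates, did not pass the filter: its counts were 0, 1, 0 and 0 in DCKO, 2, 6, 3 and 6 in DN3b, and 2, 13, 7 and 2 in DN3a. S1pr4, a related receptor, averaged 3.45 ± 0.811 CPM in DCKO, 6.74 ± 3.27 in DN3b and 8.54 ± 1.88 in DN3a, and fell by 1.31 ± 0.31 in DCKO against DN3a (edgeR adjusted p = 0.0031). Plxnd1, a guidance receptor of migrating thymocytes, averaged 12.9 ± 2.11, 13.4 ± 3.25 and 25.9 ± 10.6 CPM and fell by 1.01 ± 0.26 in DCKO against DN3a (0.0046) and 0.95 ± 0.26 in DN3b against DN3a (0.008). Cd69, which pulls the exit receptor from the surface, stood at 4.08 ± 1.39, 4.91 ± 0.993 and 7.11 ± 1.55 CPM and fell by 0.80 ± 0.26 in DCKO against DN3a (0.016, lost without DN3a library 2 at 0.0509), while in DN3b against DN3a the adjusted p was 0.094, and 0.041 with the replicate pairs as a block. Ccr7, a chemokine receptor of mature thymocytes, averaged 0.441 ± 0.228, 1.17 ± 0.451 and 0.567 ± 0.0731 CPM and rose by 1.05 ± 0.36 in DN3b against DN3a (0.026, lost without DN3b library 2 or DN3a library 1, 2 or 3, at 0.0547 to 0.117). In DCKO against DN3b the genes that fell were Ccr7, by 1.42 ± 0.37 (0.019), and S1pr4, by 0.97 ± 0.31 (0.046). The Ccr7 call was lost without DCKO library 1, 2 or 3 or DN3b library 2 (0.0515 to 0.0697) and without DCKO libraries 1 and 2 together (0.17), and the S1pr4 call without DCKO library 1, 2 or 3, DN3b library 1, 2 or 3 or DN3a library 2, 3 or 4 (0.0545 to 0.139) and without DCKO libraries 1 and 2 together (0.275).

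Of 9 cell cycle genes linked to KLF4 and KLF6, 7 passed the filter. In DN3b against DN3a 3 rose and 2 fell, in DCKO against DN3a 4 rose and 0 fell, and in DCKO against DN3b 1 rose and 0 fell. Over all genes these shares were 27.4% and 25.2%, 30.7% and 29.5%, and 10.3% and 8.58%. The rises in DCKO against DN3b numbered 3 with DESeq2 or without DN3a library 1, and 2 with RLE scaling, with limma-voom, in the 8 libraries compared alone or without DN3a library 2. The median of the 7 was 0.45, 1.3 and 0.26. Cdkn1a, the inhibitor described as a KLF6 target and also a classical target of p53, had 23.1, 53.7, 46.6 and 33.9 CPM in DCKO, 6.21, 4.52, 3.08 and 2.77 CPM in DN3b, and 18.6, 12.5, 14.9 and 18 CPM in DN3a. Like Klf6, Cdkn1a was highest in DCKO, lowest in DN3b and between them in DN3a, with no overlap between groups. This order was not particular to them, since Kat2b and Tgfbr1 had it too, also without overlap. Over all genes, 7.09% lay above both controls in DCKO without overlap. A link between Klf6 and Cdkn1a was not tested. Cdkn1a rose by 3.24 ± 0.31 in DCKO against DN3b (edgeR adjusted p = 2.4e-05) and by 1.30 ± 0.28 in DCKO against DN3a (0.0015), and fell by 1.94 ± 0.29 in DN3b against DN3a (2e-04). Ccne1, cyclin E1, rose by 3.53 ± 0.33 in DCKO against DN3a (5.5e-06) and by 2.73 ± 0.32 in DN3b against DN3a (5.1e-05). Ccnb1, cyclin B1, rose by 2.57 ± 0.37 (7.7e-05) and 2.35 ± 0.36 (0.00024) in the same comparisons. Cdkn1b, the inhibitor p27, stood at 97.2 ± 11.3 CPM in DCKO, 77.7 ± 4.31 in DN3b and 111 ± 13.3 in DN3a and had a log2 fold change of 0.32 ± 0.11 in DCKO against DN3b (0.051, and 0.0432 with RLE scaling, 0.0229 with DESeq2, 0.0475 without DN3a library 1 and 0.037 without DN3a library 2).

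**Figure D4:**
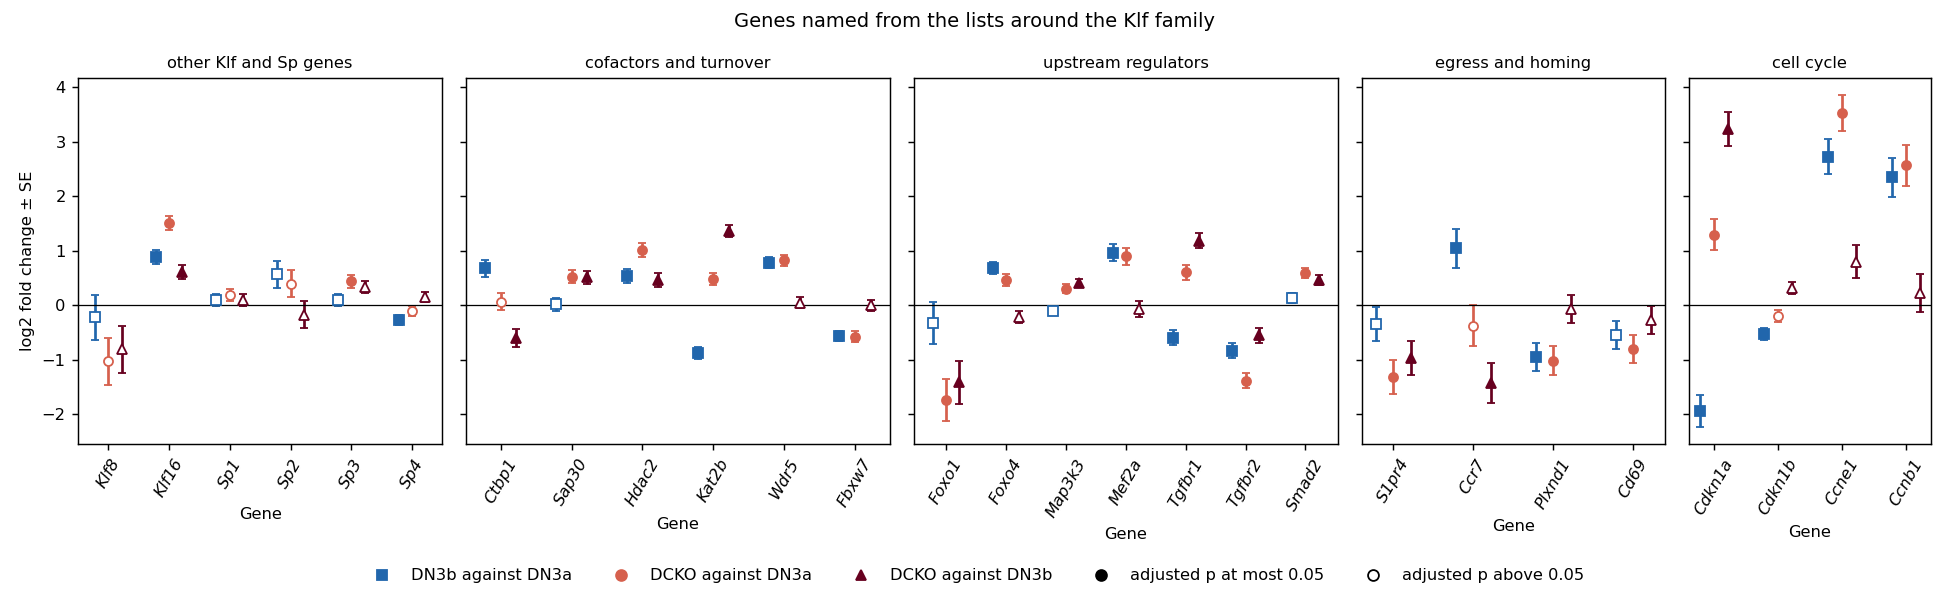
Fitted log2 fold change with SE (y axis) of the genes named from the lists around the Klf family (x axis) for DN3b against DN3a (squares), DCKO against DN3a (circles) and DCKO against DN3b (triangles). Filled symbols have an adjusted p of at most 0.05 (edgeR over all genes tested). Klf16 is filled in all 3 comparisons, and Cdkn1a is highest for DCKO against DN3b at 3.24.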

How the data were processed

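The 12 libraries, 4 per group, were made from total RNA of sorted mouse pre-T cells with a stranded kit after ribosomal RNA removal, per the labels' protocols. The tools were TopHat2 2.0.12, HTSeq, Trim Galore and DESeq2 1.6.3 and the build GRCm38, per the submitters' processing notes; no source used here gives the annotation or the strand setting. The authors deposited raw counts per Ensembl gene, from which every value here was computed. They also deposited a normalized signal, which proved to be the raw counts over a constant in each library (largest relative spread of the ratio 1.2e-09) and was not used further. Symbols were found for 42462 of 43629 genes in GENCODE M21. The most alike replicates of a group still differed beyond counting noise (chi-square over its degrees of freedom 33.7).

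Tests used edgeR 4.0.16 in R 4.3.3; DESeq2 1.42.0 and limma 3.58.1 served as alternatives. Genes were kept with filterByExpr (minimum count 10). The edgeR quasi-likelihood model was fitted once to the 12 libraries, with TMM scaling and a term for group alone (9 residual degrees of freedom). Contrasts were tested two-sided with Benjamini-Hochberg adjustment over all 13944 genes and a threshold of 0.05. The standard error is the log2 fold change divided by the square root of F. CPM values use the TMM-scaled library sizes. At this depth the spread between replicates, not counting error, limits most values; the counting floor of 3 counts covers counting error only. The fit was tested on simulated data.

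The members, the gene lists and the naming rule were chosen with earlier results of these data known. The rule names all members, the other Klf and Sp genes, the targeted genes, the 3 genes with the smallest p per other list and comparison, and for Klf6 and Klf2 the 5 genes most alike (mean log2 CPM of at least 3, no predicted, ribosomal or mitochondrial genes). The alternatives were other filters, scalings and tools, fits of 8 libraries with and without a replicate block, and leaving out libraries. Same-numbered DN3b and DN3a libraries deviated together (r of 0.35, 0.44, 0.52 and 0.56 over genes). Their numbers were therefore taken as pairs in the replicate block, while the main fit left the pairing out. DCKO numbers showed no such shared deviation. With the block, Zfp36l2 passed between the control stages (adjusted p = 0.00084, against 0.064), as did Foxo1 (0.041, against 0.49). Some genes that the rule or the marker lists name are not reported here.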

Additional observations from a re-analysis of the deposited data

Results flagged for a closer look

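In groups of 4 libraries, 17 genes in 51 groups were checked for a library whose gap to its nearest neighbour took more of the group's range than Dixon's critical value allows. Chance gives about 1 such group in 20, and 5 were found. Klf7 stood at 19.3 CPM in DCKO library 2, with the other DCKO libraries at 13.3 to 13.5. In DN3b, Klf7 stood at 5.56 CPM in library 4 with the others at 8.96 to 9.18, Klf9 at 11 CPM in library 1 with the others at 5.56 to 6.19, and Klf13 at 180 CPM in library 3 with the others at 136 to 142. Zfp36 stood at 2.42 CPM in DN3a library 1.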

How the results depend on the processing

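The 5 member calls between DN3b and DN3a were also made with every other filter, scaling and tool and with the replicate block, and leaving out 1 library left 4 or 5. Of 168 member values under an alternative in DN3b against DN3a, 154 kept their direction and side of the threshold. Of the rest, 13 reversed and 1 lost its call. For the other named genes, pooled over all 3 comparisons, 1289 values were the same and 7 reversed. A further 43 were newly past the threshold and 45 no longer past it. All reversals among tested values were of values that did not pass the test. The DCKO values of members, which were not tested, changed sign in 2 of 168 values against DN3a and 8 of 168 against DN3b. Against DN3a these were Klf3 (0.10, and -0.128 with upper quartile scaling) and Klf13 (-0.08, and 0.022 without DCKO libraries 1 and 2). Against DN3b they were Klf10 (0.06, and -0.028 to -0.008 with upper quartile scaling, without DCKO library 1 or without DN3b library 1), Klf13 (-0.06, and 0.013 to 0.053 without DCKO library 1, DN3b library 3 or DCKO libraries 1 and 2) and Klf11 (-0.10, and 0 to 0.004 without DCKO library 4 or DCKO libraries 1 and 2). Klf2 in DN3b against DN3a was -0.001 with the stricter filter (at least 1 CPM in 4 libraries), -0.101 with upper quartile scaling, -0.008 with the replicate block and -0.276 to 0.303 on leaving out 1 library; Klf11 ranged from -0.187 to 0.069 and Klf13 from -0.123 to 0.041. With upper quartile scaling Sp1 was -0.043 and Sp3 -0.045 in DN3b against DN3a, and Sp1 -0.019 in DCKO against DN3a. In DCKO against DN3b, Sp2 was 0.037 and Zfp36 0.126 without DCKO libraries 1 and 2, and -0.304 to 0 and -0.136 to 0.035 without 1 library. Upper quartile scaling put the median of all genes at -0.167 (DN3b against DN3a), -0.264 (DCKO against DN3a) and -0.101 (DCKO against DN3b), against -0.022, -0.041 and -0.022. Higher and lower calls became 3021 and 4536, 3119 and 5528, and 1051 and 1644, against 3815 and 3519, 4275 and 4116, and 1438 and 1197; 1 member was above DN3a in DCKO, in place of 3. The 17 cofactors then had 3 higher and 6 lower calls in DN3b against DN3a and 5 and 5 in DCKO against DN3a, and 8 of the 18 upstream genes fell in DCKO against DN3a in place of 5. Calls in DCKO against DN3b numbered 2635 with all libraries, 1062 in the 8-library fit with the replicate block, 950 without DCKO libraries 1 and 2, and 1601 to 3249 without 1 library (lowest without DN3b library 3, 1654 without DCKO library 2, 1670 without DN3b library 2, 1730 without DCKO library 1). Members below DN3b in DCKO numbered 0 to 1 and members above DN3a 2 to 3 on leaving out 1 library. DCKO shares only a replicate number with the controls (r of -0.19 to 0.12 with DN3a and -0.26 to 0.07 with DN3b). With that number as a block, Hdac2, Sap30, Smad2, Map3k3, Tgfbr2, Ccr7 and S1pr4 had adjusted p-values of 0.11, 0.072, 0.068, 0.051, 0.096, 0.078 and 0.15 in DCKO against DN3b, and Map3k3 0.052 in DCKO against DN3a. In DCKO against DN3b, falls among the upstream genes numbered 1 without DCKO library 2 or DN3b library 2 or 3, and rises among the cell cycle genes 3 without DN3a library 1 and 2 without DN3a library 2. The causes of these changes were not tested. Depth limits Klf4 and Klf12. Klf2 stood on 11 to 76 counts in a library, and the spread between libraries limits it as well.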

Other observations

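The genes most like Klf10 and Klf9 over the 12 libraries were looked up after the levels were seen. For Klf10 they were Rad51ap1 (Pearson r = 0.991), Bub1b (0.99), Mcm10 (0.989), Exo1 (0.989) and Aurka (0.988), with r of 0.95, 0.95, 0.96, 0.95 and 0.95 on deviations from the group means. For Klf9 they were Gpr132 (0.977), Rnf169 (0.97), Phc3 (0.97), Trim56 (0.969) and Rasgrf2 (0.969), with r of 0.91, 0.78, 0.89, 0.86 and 0.75 on the deviations. The libraries also differ in the share of counts on the nuclear RNA Malat1, which was 0.0987% to 0.205% in DCKO, 0.0991% to 0.241% in DN3b and 0.583% to 0.841% in DN3a, the group in which Klf9 was high and Klf10 low. Mitochondrial genes took 1.63% to 2.51%, 1.62% to 3.42% and 2.88% to 4.31%. The part of these shares in the Klf levels was not tested.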
